A study of Homo sapiens with 42 samples.

Results

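The peaks described here are those that separate HepG2 cells carrying an shRNA against METTL3 from HepG2 cells carrying a non-specific control shRNA, in m6A-seq. A control peak was called lost when no METTL3 peak on the same strand shared 1 or more bases of its blocks, and a METTL3 peak was called gained when no control peak did so. The 2 lists held 33672 control peaks and 30352 METTL3 peaks, out of 7 lists in the series. Of the control peaks, 7676 were lost and 25996 were kept. Of the METTL3 peaks, 3206 were gained.

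METTL3 is the catalytic subunit of the nuclear methyltransferase that places N6-methyladenosine (m6A) on messenger RNA. METTL14 forms a heterodimer with it and helps to bind the RNA, and WTAP is an adaptor that holds the pair in a larger complex. The mark sits mostly near stop codons, in 3' untranslated regions and in long internal exons, where reader proteins act on the splicing, translation and decay of the transcript. SETD2, targeted elsewhere in the series, trimethylates lysine 36 of histone H3.

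HepG2 is a hepatocellular carcinoma line. Both groups received lentiviral shRNA made in HEK293T cells and were kept in puromycin for at least 3 passages, so each is a bulk selected population and the control also carries a vector. Each had 3 input libraries and 3 libraries of RNA precipitated with an m6A antibody, 12 in all of the 42 in the series, and the labels do not say whether the replicates were separate cultures. The authors pooled replicates 1 to 3 before calling peaks, so each condition has a single list, no value here has a replicate error, and no p-value between the conditions can be given. The tables hold neither transcript levels nor gene symbols. The depletion of METTL3 and the liver markers of the line were therefore not checked, and the genes were not sorted by function: 0 of their identifiers could be paired with a symbol in the tables used here, so genes are described by identifier or by position in hg19. A called peak depends on transcript level and read depth as well as on methylation, and fewer modified molecules cannot be told apart from fewer transcripts.

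Most of the control m6A peaks were still called in METTL3 shRNA cells. The lost share was 22.8% (exact Clopper-Pearson 95% interval 22.3 to 23.2; intervals cover counting error only). The gained share of the METTL3 list was 10.6% (10.2 to 10.9). The series has a second control list, from the control shRNA made for SETD2#2. Searched in that list instead, 28.6% of the same control peaks were absent, a larger share than with METTL3 shRNA. The same control peaks set against the lists of the other targets left 29.8% absent with METTL14, 28.8% with WTAP, 27.0% with SETD2#1 and 34.4% with SETD2#2 shRNA. These shares use the same control list and are given side by side only.

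Lost peaks were mostly weakly supported ones. Their median log10 p of enrichment over input, as the authors computed it, was -3.65, against -20.4 for kept control peaks. Their median fold enrichment (IP over input) was 4.19 against 7.57, and their median width, summed over blocks, was 150 bases against 329 bases. Gained peaks were of the same kind: a median log10 p of -3.80 and 4.74-fold enrichment, against -16.1 and 7.29-fold for the METTL3 peaks that overlapped a control peak, and 148 bases against 270 bases. Among control peaks with a p at or better than the list's median (log10 p -11.8), 409 of 16891 were lost, or 2.42%. Among those with a worse p, 43.3% were lost, and these made up 94.7% of all losses. The same split of the METTL3 list, at a log10 p of -12.9, gave gained shares of 1.90% and 19.3%.

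With each list divided into 20 classes of equal size by p, the lost share climbed from 0 of 1683 peaks in the first class (interval up to 0.219%) to 72.4% in the last, whose median log10 p was -2.40. The gained share climbed from 0 of 1517 peaks to 38.6%. In the class at a median log10 p of -5.0, 40.9% of control peaks were lost. The METTL3 class nearest to it, at -5.26, held 15.0% gained peaks. Median fold enrichment in those 2 classes was 5.14 and 4.57.

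**Figure D1:**
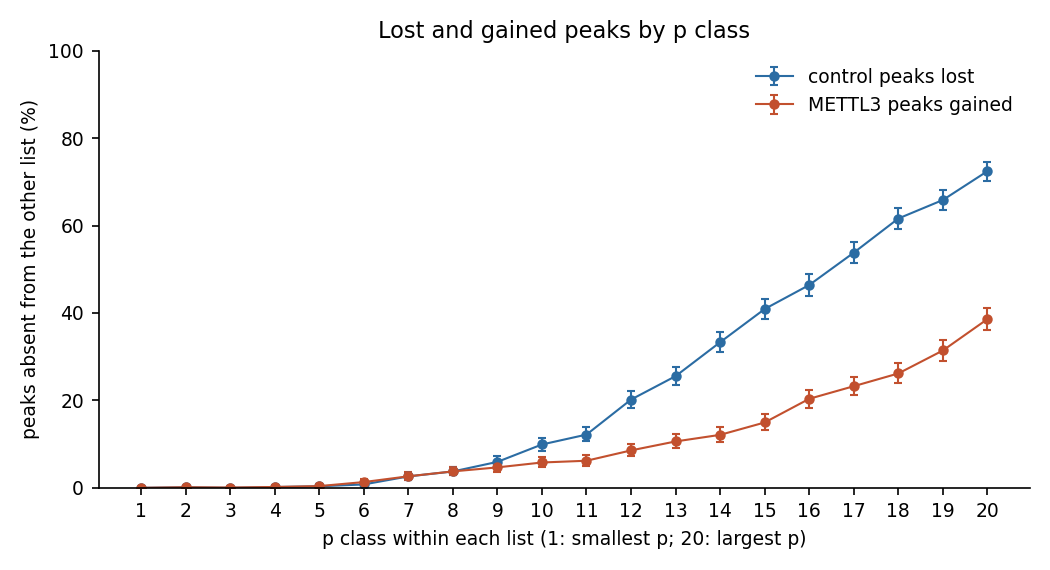
Share of control peaks absent from the METTL3 list (blue) and of METTL3 peaks absent from the control list (orange), in percent, by class of p within each list; bars are exact 95% intervals. Both shares are near 0 in the first classes and reach 72.4% and 38.6% in the class with the largest p.

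A number of weak peaks carried exactly the same pair of fold enrichment and p. In the control list, 19 pairs of values were each shared by 50 or more peaks, 2701 peaks in all. The most frequent was 10.3-fold with a log10 p of -2.41, carried by 275 peaks of which 207 (75.3%) were lost. Of all peaks with such repeated values 60.7% were lost. They supplied 21.4% of the losses and were 8.02% of the list. Weak control peaks in general were lost about as often, at 61.6% to 72.4% in p classes 18 to 20. In the METTL3 list 20 such pairs covered 2291 peaks (7.55% of the list), and 34.5% of them were gained. Classes 18 to 20 of that list held 26.2% to 38.6% gained peaks. The most frequent METTL3 pair was 10.1-fold with a log10 p of -2.67. These repeated values pair a high fold with a weak p. Fold alone did not separate lost from kept peaks, as 25% of lost control peaks were at 10.3-fold or more.

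Peaks of 1 block made up 6033 of the 7676 losses and 20602 of the 33672 control peaks. Of 3578 control peaks of up to 100 bases, 68.8% were lost, and of 7292 peaks over 500 bases, 0.645%. A peak of 1 block was lost in 29.3% of 20602 cases, a peak of 3 blocks in 7.66% of 2845, and a peak of 5 or more blocks in 4 of 882 (0.454%, interval 0.124 to 1.16). To set p aside, each peak was given the lost share of its own p class, and these shares were averaged over a group. Peaks of 5 or more blocks would then have lost 1.85%, and peaks of 1 block 28.3%, so at like p the multi-exon peaks were lost less. Wide peaks were also lost less at like p: their classes gave 2.43% over 500 bases and 61.4% up to 100 bases. The overlap rule itself favours wide peaks, since 1 shared base keeps a peak and a wide peak has more bases to share. When an overlap had to cover 50% of both peaks, 42.1% of peaks with 1 block and 17.1% of peaks with 3 or more blocks were lost. How much of the difference by width comes from the rule was not tested. Whether block number matters apart from width was not tested. For gained peaks, block number went the other way. Peaks of 3 blocks were gained in 7.87% of 2555 cases against 4.86% from their p classes, and peaks of 2 blocks in 10.4% against 8.58%. Peaks of 1 block were gained in 11.8% against 12.9%. With the second control list in place of the METTL3 list, 12.4% of control peaks with 3 or more blocks were absent, against 5.32% with METTL3 shRNA.

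**Figure D2:**
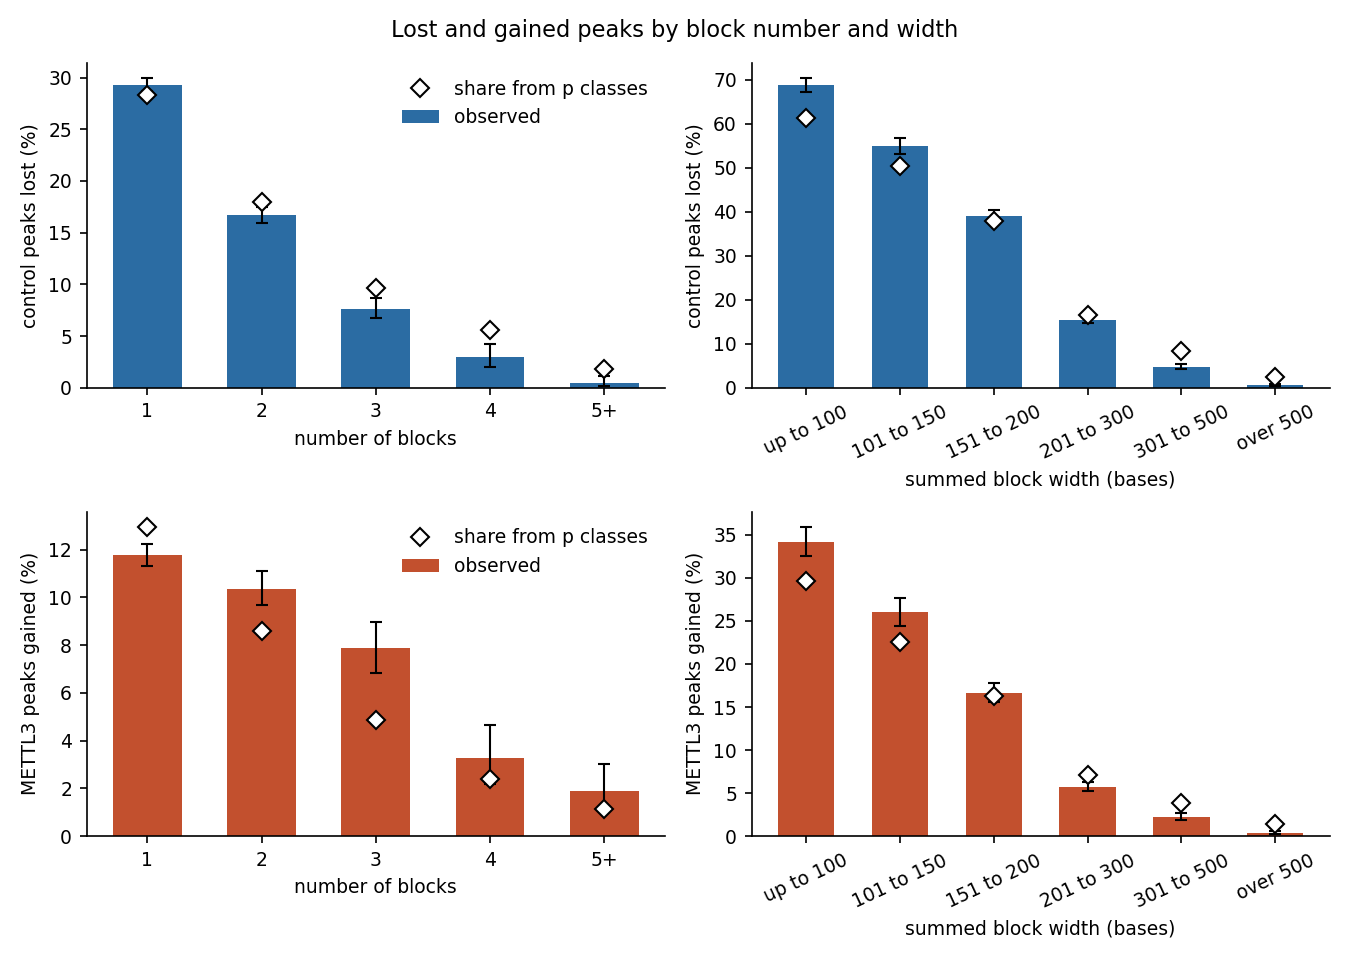
Lost share of control peaks (blue) and gained share of METTL3 peaks (orange), in percent, by number of blocks and by summed block width in bases; bars carry exact 95% intervals and diamonds give the share that the peaks' p classes had in the whole list. Losses lie below the diamonds in peaks of 2 or more blocks, and gains lie above them, with intervals that hold the diamond at 4 and at 5 or more blocks.

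Much of the difference between the lists lay within control peaks that overlapped a METTL3 peak. Control peaks covered 12234 kb of transcript, and 2829 kb of it (23.1%) was not covered by METTL3 peaks. Whole lost peaks accounted for 1142 kb, or 40.4% of that, and 1687 kb lay within kept peaks. In the other direction, 1128 kb was covered by METTL3 peaks alone (10.7% of their bases), of which 469 kb lay in gained peaks. A total of 21073 control peaks matched a single METTL3 peak that matched no other. In these pairs the median width was 300 bases in the control list and 270 bases in the METTL3 list, and the median fold enrichment was 7.19 and 7.01. The number of blocks was the same in 84.8% of pairs, lower in the METTL3 list in 9.77% and higher in 5.46%. A further 3654 control peaks were met by 2 or more METTL3 peaks, and 2892 METTL3 peaks by 2 or more control peaks.

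The lost peaks with the smallest p had, for the most part, low fold enrichment. The first, on the minus strand at chr17:79477592-79477770, was 1.68-fold enriched with a log10 p of -333. It had no overlapping peak in the METTL3, METTL14, WTAP, SETD2#1 or second control lists, and 1.10-fold in the SETD2#2 list. The second, at chr12:56510987-56511374 on the plus strand, was at 1.32-fold in the control, 2.81-fold in the second control, 2.64-fold with SETD2#2 and 1.15-fold with SETD2#1, and had no peak in the METTL3, METTL14 and WTAP lists. A peak of 3 blocks at chr11:118922584-118923113 on the minus strand was at 2.08-fold in the control, 1.82-fold in the second control and 1.81-fold with SETD2#2, and again had no peak with METTL3, METTL14 or WTAP shRNA. METTL14 and WTAP are compared with the same control peaks here, so their absences are no independent count.

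A peak of 268 bases at chr3:51423578-51424418 on the plus strand stood apart among these 10, with 8.25-fold enrichment at a log10 p of -66.7. It was in the first control list and in none of the other 6. The gene also had a METTL3 peak 653 bases away. The peak at chr12:57625466-57625675 on the plus strand, 2.74-fold with a log10 p of -74.9, was likewise in none of the other 6 lists, the second control included. The last of the 10, 629 bases at chr22:39916495-39917123 on the plus strand, was 5.0-fold enriched in the control and 2.60-fold with SETD2#1, and had no peak in the remaining lists. Of the 10, 5 had a peak in the second control list and 5 did not. Only 5 of the 10 were in the shorter deposited list, which asks for at least 2-fold enrichment. The peak at chr20:2448354-2473471 on the minus strand, 2.36-fold, overlapped a METTL3 peak when whole spans, introns included, were compared.

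Few losses were strong by both measures: 68 of the 10075 control peaks at or better than the list's medians of p and of fold (6.79) were lost, or 0.675% (interval 0.524 to 0.855). Among these, a 330-base peak at chr19:6664309-6664638 on the minus strand was 18.5-fold in the control and 10.3-fold in the second control. It was 7.32-fold with METTL14, 6.25-fold with WTAP, 11.8-fold with SETD2#1 and 8.54-fold with SETD2#2 shRNA, so that the METTL3 list was the only one of the 7 without it. The peak at chr1:156883827-156884851 on the plus strand, the only peak of its gene, was absent from the METTL3 list alone in the same way, at 17.9-fold in the control, 3.44-fold in the second control and 7.17-fold, 7.45-fold, 7.47-fold and 5.44-fold with METTL14, WTAP, SETD2#1 and SETD2#2 shRNA. A 5-block peak of 926 bases at chr17:39775689-39778148 on the minus strand was 9.43-fold in the control and 13.8-fold with WTAP, and absent elsewhere. These 3 were chosen after their values were seen.

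The gained peaks with the smallest p lay, in 9 of 10 cases, in genes that had control peaks too, beside 76.5% of all gained peaks. None of the 10 had a peak in the second control or SETD2#2 list. The first, at chr19:40327228-40328450 on the minus strand, was 2.60-fold enriched with a log10 p of -228 with METTL3 shRNA. At that place the METTL14 list had 1.42-fold, the WTAP list 1.34-fold and the SETD2#1 list 1.19-fold. A 4-block peak of 448 bases at chr7:149572034-149575960 on the plus strand was 9.40-fold with METTL3 shRNA, with a log10 p of -169, and lay 88 bases from the nearest control peak of its gene. It was 5.29-fold with METTL14, 2.44-fold with WTAP and 3.59-fold with SETD2#1 shRNA. The peak at chr9:124072866-124073076 on the plus strand was 5.83-fold with METTL3, 9.22-fold with METTL14, 3.63-fold with WTAP and 2.68-fold with SETD2#1 shRNA.

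A pair of neighbouring gains among the 10 lay in the same gene. At chr19:1090960-1091622 and chr19:1088309-1089478, both on the minus strand, the METTL3 list had 4.59-fold and 2.17-fold peaks, where METTL14 had 2.98-fold and 1.28-fold and WTAP 2.92-fold and 1.17-fold. A peak of 299 bases on chromosome 8, the only peak of its gene, was 10.6-fold enriched with METTL3 shRNA. It was in neither the METTL14 nor the WTAP list and at 18.9-fold in the SETD2#1 list. The log10 p was -4.98 with SETD2#1 against -59.5 with METTL3 shRNA. Of the 9322 METTL3 peaks at or better than the medians of p and fold (7.02), 49 were gained, or 0.526%. Among the 10 of these with the smallest p, the highest fold was at chr6:31863964-31864204 on the minus strand, a 241-base peak at 21.6-fold with METTL3, 18.9-fold with METTL14, 15.4-fold with WTAP and 2.65-fold with SETD2#1 shRNA. It was in neither control list.

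**Figure D3:**
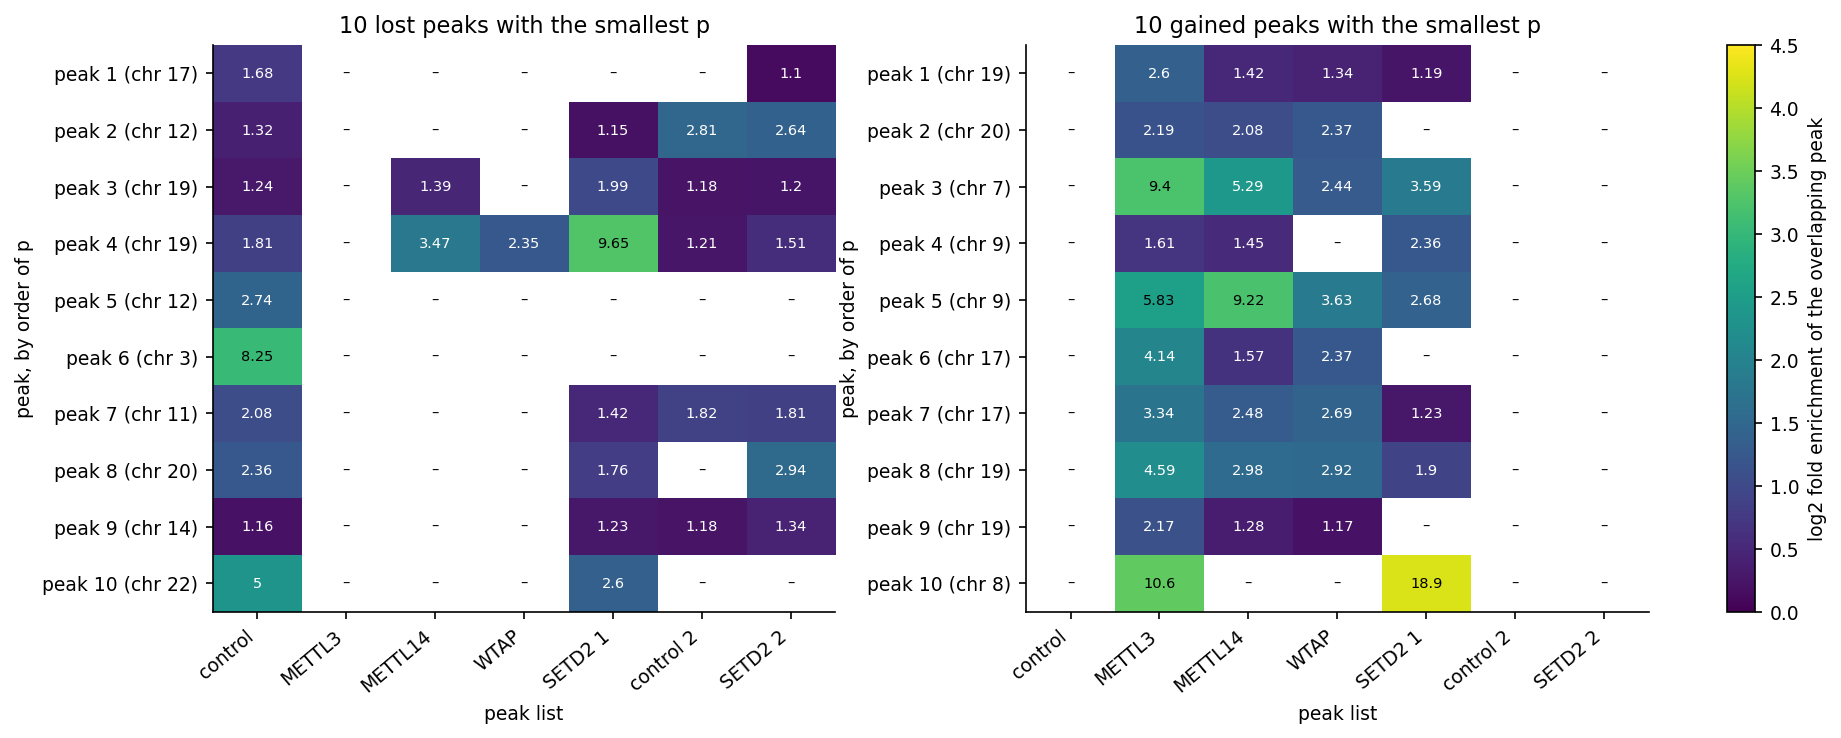
Fold enrichment of the overlapping peak in each of the 7 lists (columns), for the 10 lost and the 10 gained peaks with the smallest p (rows); numbers are folds, colour is their log2, and a dash marks a list with no overlapping peak. The lost peaks on chromosome 3 (8.25) and at rank 5 on chromosome 12 (2.74) are in the control list only, and the columns of the second control and SETD2#2 are empty for all 10 gained peaks.

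Genes mostly kept all their peaks or lost some. The control list named 14570 genes. All peaks were kept in 8749 of them (60.0%), some were lost and some kept in 3817 (26.2%), and all were lost in 2004 (13.8%). By the gene name alone, 1880 genes (12.9%, interval 12.4 to 13.5) had a control peak and no METTL3 peak, and 631 of the 13321 genes of the METTL3 list (4.74%, 4.38 to 5.11) had no control peak. Of the genes left without a peak, 1508 (80.2%) had had a single peak, 298 had 2 and 74 had 3 or more. Among all 14570 genes of the control list, 5974 had a single peak, and such a gene needs only 1 loss to be left without one. In 24 of the 1880, a control peak did overlap a METTL3 peak that carried another gene's name. Of the genes with a peak only in the METTL3 list, 532 (84.3%) had a single peak and 21 had 3 or more. Among all 13321 genes of that list, 5642 had a single peak. Of the lost peaks, 69.7% lay in genes that still had a METTL3 peak, at a median of 1225 bases from it in the genome, introns included, with 35.8% of them within 500 bases.

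The gene with the most lost peaks was ENSG00000075275.16 on the minus strand of chromosome 22, where 10 of 11 control peaks were lost. From the 5' end, 8 lost peaks followed each other between chr22:46929678 and chr22:46932257, at 6.43-fold to 33.4-fold, the strongest with a log10 p of -9.21. The WTAP list had peaks at 3 of these places, at 5.79-fold, 13.2-fold and 14.9-fold, the second control list had 1, at 11.5-fold, and the METTL14, SETD2#1 and SETD2#2 lists had none. The 3'-most peak, chr22:46758590-46759040, was kept, at 53.4-fold in the control and 50.7-fold with METTL3 shRNA. Enrichment at that 3' place was 45.8-fold in the second control, 45.6-fold with SETD2#1, 38.8-fold with WTAP, 22.9-fold with METTL14 and 9.79-fold with SETD2#2 shRNA. The other 2 lost peaks lay on the 3' side, at chr22:46773289-46773379 (12-fold) and chr22:46760560-46760620 (11.1-fold).

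The next genes by number of losses had 6 to 8 lost peaks each. At chr1:152276121-152286557 on the minus strand, 8 of 9 control peaks, all of 10.3-fold to 20.6-fold and none with a log10 p beyond -5.37, were lost. The WTAP and SETD2#2 lists each had peaks at 6 of these 8 places and the METTL14 list at fewer. The second control and SETD2#1 lists had none. At chr5:82767284-82877103 on the plus strand, 8 of 16 peaks were lost, at 1.80-fold to 8.57-fold. The 3'-most peak was kept, at 11.4-fold in the control and 8.88-fold with METTL3 shRNA. It stood at 5.30-fold in the second control, 6.99-fold with SETD2#1, 7.71-fold with SETD2#2, 2.00-fold with WTAP and 3.40-fold with METTL14 shRNA. The best supported loss there, chr5:82834393-82834633, was 3.62-fold with a log10 p of -44.4, and 1.66-fold in the second control. At chr16:2802600-2820644 on the plus strand, the 7 lost of 14 peaks were low in fold, at 1.30-fold to 2.11-fold. Their log10 p was as small as -20.7, and the strongest peak of the transcript reached 28.8-fold.

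Among genes left without a peak, the largest numbers of control peaks were 6, 6, 5, 5 and 5. In ENSG00000185567.6, at chr14:105406729-105420642 on the minus strand, the 6 peaks (5 places, since a pair overlapped) were 6.0-fold to 13.7-fold with a log10 p no better than -4.34. The METTL14 list had overlapping peaks of 746-fold, 92.8-fold and 76.6-fold, and the WTAP list 25.9-fold, 13.8-fold and 15.4-fold over 4 of the 6 peaks. Those METTL14 peaks were 1291, 2849 and 389 bases wide, against 61 to 271 bases in the control, so their folds cover more than these places. Other lists had peaks here too. At chr14:105420372-105420642 the second control had 14.5-fold and SETD2#2 3.85-fold, and SETD2#1 also had a peak. At chr14:105406729-105406819 the second control had 13.7-fold and SETD2#1 10.2-fold. A gene at chr19:52567871-52570836 on the minus strand had 6 peaks at 4 places, of 2.29-fold to 3.21-fold. At chr2:177040019-177053596 on the minus strand, the 5 lost peaks ran from 1.98-fold to 70.3-fold. The strongest, 3 blocks at chr2:177052965-177053596 with a log10 p of -20.5, was 9.76-fold with METTL14, 7.45-fold with WTAP, 7.08-fold with SETD2#1 and 11.5-fold in the second control. At chr17:36622607-36667402 on the plus strand, the first of 5 lost peaks was 42.0-fold in the control, 35.9-fold in the second control, 92.1-fold with METTL14 and 190-fold with WTAP shRNA, and was not called with METTL3 shRNA.

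Genes with many peaks and no loss were found as well. The gene at chr1:148251597-148325191 on the minus strand had 18 control and 18 METTL3 peaks, all control peaks between 3.51-fold and 7.22-fold. At chr2:21224331-21266945 on the minus strand, 15 control peaks and 15 METTL3 peaks were called, with control values from 1.55-fold to 58.7-fold and a log10 p of -32.6 for the weakest. At chr16:72820950-73092938 on the minus strand, all 14 control peaks were kept and the METTL3 list had 18, and the control values ran from 2.90-fold to 110-fold. The 8 genes of this kind had 10 to 18 control peaks each.

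The gene with the most gained peaks, ENSG00000142798.17 on the minus strand at chr1:22148738-22213970, had 6 control peaks and 14 METTL3 peaks, of which 8 were gained. The gained peaks were 1.83-fold to 4.57-fold with a log10 p no better than -5.01. At the 3' end, the peak chr1:22148738-22149337 had 9.20-fold in the control and 9.80-fold with METTL3, 10.6-fold with METTL14, 10.3-fold with WTAP, 9.92-fold with SETD2#1 and 9.49-fold in the second control. The METTL14 list had 21 peaks of this gene and the WTAP list 20, against 7 in the second control and 6 with SETD2#1. At chr1:22150603-22151102 the METTL3 and control folds were 4.57 and 1.44, at chr1:22169797-22172673 they were 4.20 and 1.38, and at chr1:22149487-22150244 they were 4.14 and 4.24. This gene was chosen after its values were seen.

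**Figure D4:**
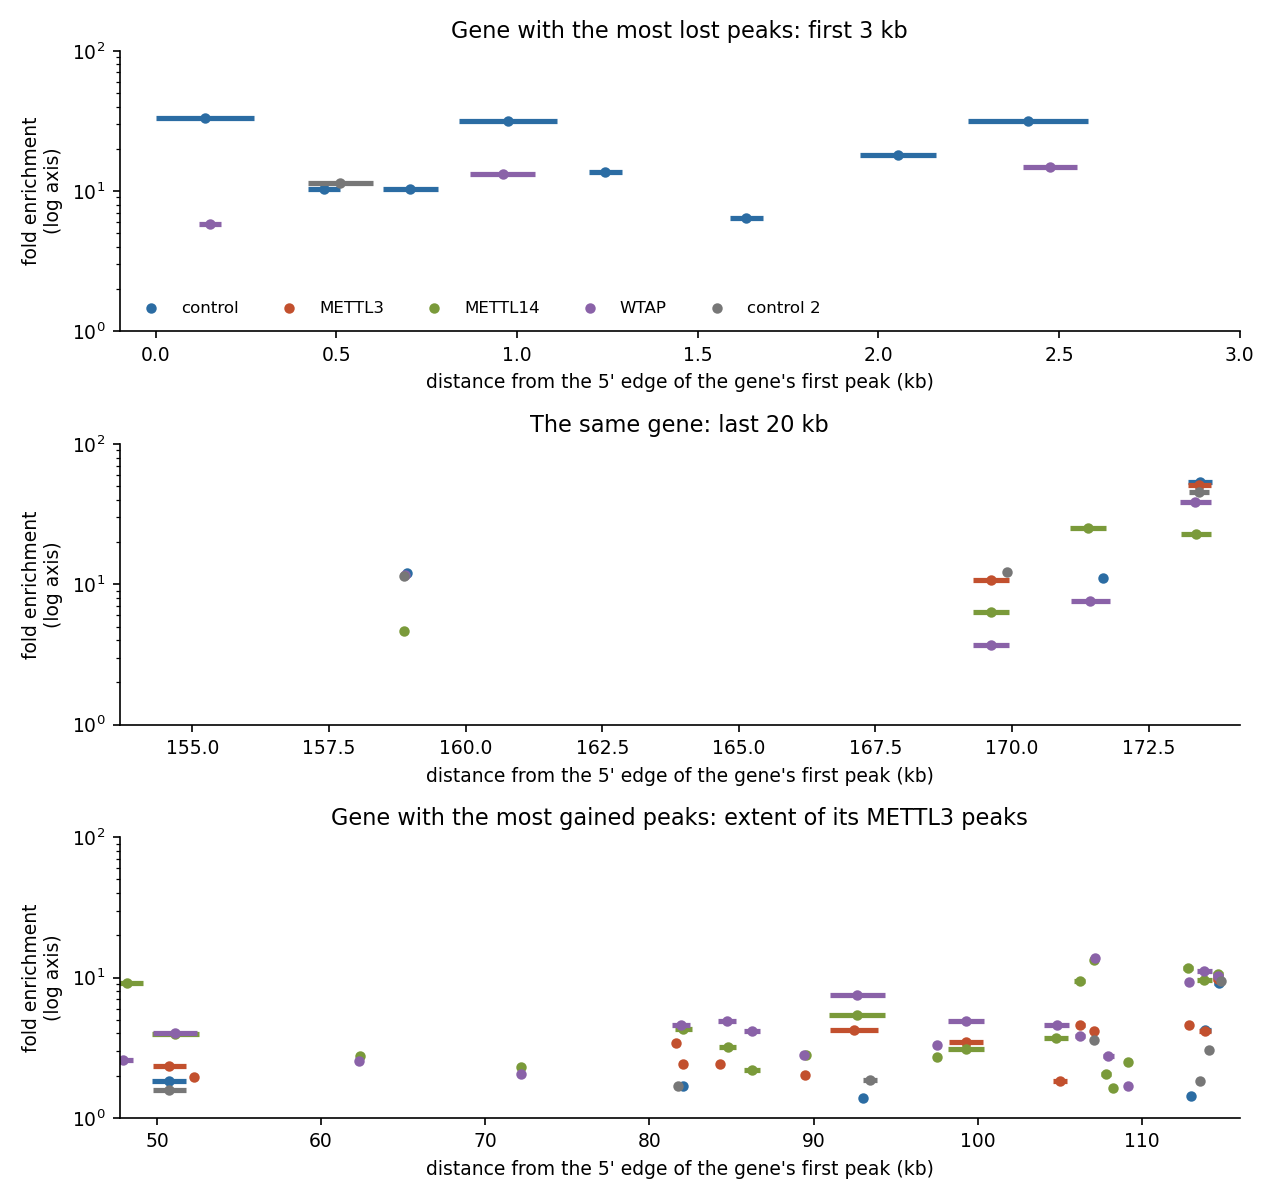
Fold enrichment (log axis) of called peaks against distance in kb from the 5' edge of the gene's first peak in any list, for the gene with the most lost peaks (first 3 kb and last 20 kb) and the gene with the most gained peaks; bars run from the first to the last base of a peak, introns included. The first 3 kb of the upper gene hold 8 control peaks and no METTL3 peak, while its 3' end holds a peak of 53.4-fold and 50.7-fold in those lists.

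At chr10:73819123-73848333 on the minus strand, 5 of 9 METTL3 peaks were gained, and all 5 followed each other at the 3' end of the called region, from 2.69-fold to 5.80-fold with a log10 p as small as -52.2. The 7-block peak next to them on the 5' side was in all 7 lists, at 91.3-fold with METTL3, 59.0-fold with METTL14, 43.7-fold with WTAP, 44.9-fold with SETD2#1, 29.4-fold in the control, 12.3-fold in the second control and 10.7-fold with SETD2#2 shRNA. Genes with a peak only in the METTL3 list had at most 4 peaks. In ENSG00000259070.5, at chr14:39305200-39307989 on the minus strand, the 4 peaks were 10.1-fold to 13.7-fold, with weak log10 p of -2.67 to -3.83. The WTAP list had 9.93-fold to 18.8-fold at all 4, METTL14 had 11.6-fold at 1, and the second control had none. At chr2:98349661-98354572 on the plus strand, the 4 peaks of 9.13-fold to 13.2-fold were in no other list. Their log10 p was also weak, at -2.35 to -3.63.

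The place of a peak in its transcript went with small differences. In genes with 3 or more control peaks, the 3'-most was lost in 19.1% of 4801 cases, the 5'-most in 23.1% and those between in 21.6%. Their p classes would have given 18.3%, 24.9% and 22.3%. At like p, the 5'-most peak was lost slightly less (interval 21.9 to 24.3), while the interval of the 3'-most, 17.98 to 20.22, held its p-class share. For gained peaks the shares were 9.37% at the 3' end, 8.56% at the 5' end and 12.1% between, against 8.39%, 11.9% and 9.76% from the p classes. The only peak of a gene was lost in 27.1% of 5974 cases (25.7% from the p classes), and peaks of genes with 8 or more in 20.6% of 2062 (23.1%). Gained shares were 11.7% for the only peak of a gene, 9.50% in genes with 2 peaks and 13.2% in genes with 8 or more. The p classes gave 12.3%, 10.7% and 9.68%. For gains, peaks were counted and placed within the METTL3 list, so a gained peak itself raises the count of its gene and shifts the places. The gained shares by place and by count are therefore descriptive only.

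By chromosome, the lost share was highest on chromosome 13, at 144 of 435 peaks (33.1%, interval 28.7 to 37.7), where the p classes gave 27.1%. It was lowest on chromosome 20, at 18.6%, where the p classes gave 18.4%. The interval lay above the p-class share on chromosomes 13 and 6 (24.5% against 20.8%) and below it on chromosomes 17 (20.02% against 22.1%) and 19 (19.7% against 23.0%), of 24 chromosomes compared with no adjustment for their number. For gains the interval lay above the p-class share on chromosomes 16, 19 and 22 and below it on chromosomes 1, 4, 5 and 15. Chromosome 19 had a gained share of 13.1% against 9.73%, and chromosome 5 one of 8.17% against 11.8%. In the second control list, 29.7% of the chromosome 13 peaks and 32.2% of the chromosome 19 peaks of the first control were absent, against 28.6% of all its peaks. Side by side, chromosome 13 stood at 44.8% with METTL14, 43.0% with WTAP, 32.0% with SETD2#1 and 34.5% with SETD2#2 shRNA. Chromosome 19 stood at 25.2%, 24.6%, 28.5% and 39.4% in the same order, and all control peaks at 29.8%, 28.8%, 27.0% and 34.4%.

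**Figure D5:**
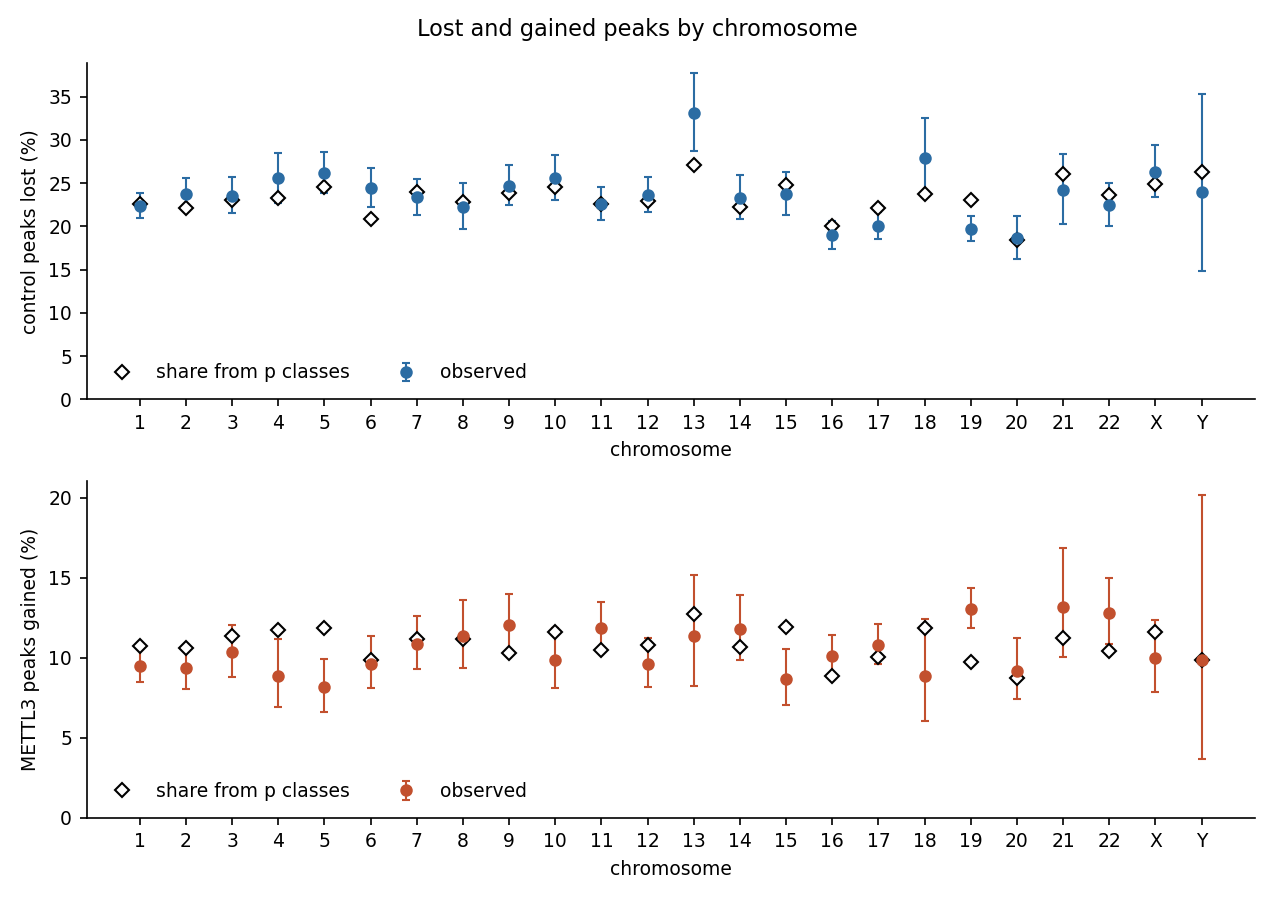
Lost share of control peaks (upper) and gained share of METTL3 peaks (lower), in percent, by chromosome; circles carry exact 95% intervals and diamonds give the share from the peaks' p classes. Chromosome 13 is highest for losses (33.1%), and chromosome 19 lies below its diamond for losses (19.7%) and above it for gains (13.1%).

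The lost share was 22.6% on the plus strand and 23.0% on the minus strand. An opposite-strand METTL3 peak lay over 136 lost peaks (1.77%). Control peaks that overlapped others of their list were lost less at like p. Of the 2784 that overlapped a control peak on their own strand, 16.1% were lost, against 19.8% from their p classes and 23.4% of the remaining peaks. Of the 3773 that overlapped a control peak on the opposite strand, 15.4% were lost, against 18.4% from their p classes and 23.7% of the remaining peaks. In 520 of the same-strand cases the overlapped peak had the same gene name, so a count of peaks in a gene can exceed its number of places.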

How the data were processed

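m6A-seq libraries of input and precipitated RNA were made from HepG2 cells with stranded kits, per the labels' protocols. FastQC 0.11.5, TopHat2 2.1.1 and build hg19 come from the submitters' processing notes. Which exomePeak version and annotation were used is not given in the sources used here. Replicates 1 to 3 were pooled by the authors for exomePeak, per the labels. The deposited tables give, per the file headers, a p-value per peak, scores that are the log10 of p and of the false discovery rate, and a fold enrichment, a ratio of IP to input. Reads per library are unknown from these files.

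Rows repeating strand and blocks were dropped (16 control, 11 METTL3). Overlap used bedtools 2.31.1, with 1 shared block base on the same strand; shares were computed with pandas 2.3.3 and scipy 1.17.1 in Python 3.11.15, with exact 95% intervals. Overlap calls and p-class shares were tested on simulated data. The share from p classes is the mean lost (or gained) share of each peak's class among 20 classes of its list. Across lists, a peak's value is that of the overlapping peak with most shared bases, which can reach beyond it. Printed starts count from 1.

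Named were the 10 lost and 10 gained peaks with the smallest p, the 8 genes with most lost peaks, most peaks among those left without any, most peaks only in METTL3, and most peaks with none lost, some given as ranges. Members and lists were chosen with earlier results of these data known. Gene lists by function and cell type markers were not analysed here, nor were sequences under the peaks.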

Additional observations from a re-analysis of the deposited data

How the results depend on the processing

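The lost share moved from 22.8% to 35.1% when an overlap had to cover 50% of both peaks, to 20.4% with a false discovery rate of at most 1e-05 in both tables, to 24.3% with a fold enrichment of at least 3, to 20.4% in the shorter deposited lists and to 2.42% for control peaks with p at or better than the median. With the second control list in place of the METTL3 list it was 28.6%. The gained share moved from 10.6% to 27.9%, 10.2% and 13.7% under the first 3 of these settings, to 1.90% for peaks with p at or better than the median and to 12.7% with overlapping peaks joined and blocks counted singly. Genes left without a peak moved from 12.9% to 15.0% at a fold of at least 3 and to 13.8% when judged by all their peaks lacking an overlap. Genes with a peak only in METTL3 moved from 4.74% to 6.42% and 5.80% under these same settings. Whole spans and repeated rows kept every share of peaks within its interval, but with whole spans 9 of the 10 named lost peaks were still lost, and 5 of these 10 and 9 of the 10 named gained peaks were in the shorter lists. The 6 shares by chromosome, block number and single-peak genes were higher with 50% overlap in 6 of 6, lower at the better p in 6 of 6, and higher in 4 of 6 with the second control list. Joining overlapping peaks and these 6 shares were added after the data were examined. The cause of these moves was not tested.

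No paired analysis was possible because the tables pool replicates 1 to 3, and leaving out replicates was not run for that reason. The alternatives for gene lists were not run, as no list was matched. Depth per library is unknown, and an absent peak is not an absent mark.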
